A study of Mus musculus with 4 samples.

Results

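Smr2, Smr3a and Cck luminal cells were mouse mammary organoid cells selected on the transcript counts of 3 genes for secreted products, and 3075 of the 33268 cells in 4 droplet libraries were members. Transcripts were counted by unique molecular identifiers (UMIs), each of which stands for 1 captured molecule. Members had 1000 to 6000 detected genes, under 5% of UMIs on mitochondrial genes and at least 3 UMIs in total on Smr2, Smr3a and Cck. They also had under 300 counts per 1000000 UMIs (CPM) of the basal keratin gene Krt14, under 300 CPM of Areg, a growth factor gene of hormone receptor positive (HR+) luminal cells, under 50 CPM of Tmigd1 and Sez6 together, and under 100 CPM of the mitotic genes Cenpf, Ccnb2, Cdc20 and Birc5 together. The limits other than that on the 3 genes kept 10384 cells, of which 29.6% were members. A further 5236 cells had no UMI on the 3 genes and served as comparison cells, and 2073 cells with 1 or 2 such UMIs entered neither kind. Because the 3 genes chose the members, their levels in these cells are a description and were not tested.

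The organoids were grown from mammary glands of aged virgin female mice that were wild type or carried Brca2mut/WT, a germline truncating mutation of 1 Brca2 allele, with wild-type littermates as controls. Each genotype was left untreated or exposed to hydroxyurea (HU), which depletes nucleotides and stalls DNA replication. Organoids had been stored frozen and were thawed, cultured and dissociated before capture. There was 1 library for each combination, wild-type control, wild-type HU, Brca2mut/WT control and Brca2mut/WT HU, and values are given in that order unless said otherwise. The labels give 2 replicates per library, and organoids of passages 0 and 4 were sequenced, but neither the passage or passages in a library nor the meaning of the 4 antibody tags is given in the labels. A library may thus hold cells of both passages. Cells of 1 tag were therefore treated as an unlabelled pool, and a tag number shared by libraries is not known to mark the same mouse or passage. The libraries held 302135155, 258821284, 243430259 and 258118001 UMIs in all cells, and the members 22763757, 28504138, 17020580 and 17725022. Pairs of libraries shared 16 to 30 cell barcodes, and 23 members carried a barcode found in another library. Cells without a single clear antibody tag, which can be doublets, made up 4.50, 4.62, 3.66 and 4.91% of members and 10.9, 10.3, 14.8 and 15.8% of comparison cells.

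Luminal cells of the mammary duct fall into HR+ cells, which sense ovarian hormones, and hormone receptor negative (HR-) cells, which give rise to the milk-secreting alveoli. Smr2 and Smr3a belong to the submaxillary gland androgen regulated genes, whose small secreted products are best known from rodent saliva. Cck encodes cholecystokinin, a peptide hormone of gut and brain that is cut from a longer precursor before release. The other markers named for these cells were Id1, a BMP target that blocks helix-loop-helix transcription factors, Spp1, which encodes the matrix glycoprotein osteopontin, and Otx1, a homeobox transcription factor gene.

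On GRCm38, Smr3a (ENSMUSG00000029280, chr5:88002549-88008534) and Smr2 (ENSMUSG00000029281, chr5:88086556-88109053) lie on the plus strand, 78022 bases apart, while Cck (ENSMUSG00000032532, chr9:121489824-121495694, minus strand) is on another chromosome. Over the 250 bases before their starts in RefSeq (GRCm38.p6), the promoters of Smr2 and Smr3a were identical at 214 of 234 aligned bases, 91.5%, against 60.7% for Smr2 with Cck and 60.4% for Smr3a with Cck. Smr2 and Smr3a were also found in the same cells more often than separate detection would give, and a link to their promoters was not tested. The sequences below are 150 bases of each of the similar promoters. Capitals mark their longest identical run, 55 bases, which 2 of 32851 promoters held, those of Smr2 and Smr3a.
Smr2, chr5:88086366-88086515, plus strand: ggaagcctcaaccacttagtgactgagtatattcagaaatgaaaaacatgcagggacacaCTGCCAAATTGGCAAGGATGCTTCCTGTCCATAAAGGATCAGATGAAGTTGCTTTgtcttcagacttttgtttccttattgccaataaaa
Smr3a, chr5:88002348-88002497, plus strand: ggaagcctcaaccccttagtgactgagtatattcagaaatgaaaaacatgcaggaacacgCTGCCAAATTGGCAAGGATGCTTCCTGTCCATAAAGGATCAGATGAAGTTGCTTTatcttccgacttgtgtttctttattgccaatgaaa
On either strand, the AP-1 letters TGANTCA were found in the promoters of Smr2 and Smr3a and not in that of Cck, and in 6.75% of all promoters. The STAT5 letters TTCNNNGAA (7.02% of promoters) and the steroid receptor letters AGAACA (16.1%) were in none of the 3, and the E box letters CANNTG (66.2%) in all 3. These matches are descriptions only. The longest annotated transcripts of Smr2 and Smr3a, of 813 and 635 bases, shared 0 windows of 50 bases, so that no read of that length is common to both models.

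Most members were selected through Cck. It was detected in 85.2, 86.5, 84.0 and 90.0% of members, Smr2 in 35.7, 39.4, 39.3 and 31.1%, and Smr3a in 5.80, 6.65, 6.49 and 4.40%. Summed over members, Cck had 315, 431, 317 and 395 CPM, with exact Poisson 95% intervals of 308 to 322, 424 to 439, 308 to 325 and 386 to 405. Smr2 had 99.9, 128, 135 and 80.2 CPM and Smr3a 7.34, 17.8, 12.3 and 12.1 CPM. Cck was thus the most abundant of the 3 by UMIs in each library and Smr3a the least. Intervals cover counting error only.

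Smr2 was concentrated in fewer cells than Cck. The top 10% of members held 69.9, 73.2, 70.2 and 80.3% of Smr2 UMIs, compared with 37.2, 40.8, 40.8 and 36.9% of Cck UMIs. The median member had 211, 272, 189 and 248 CPM of Cck and 0 of Smr2. Over the 3 genes together, members had a median of 7, 9, 8 and 9 UMIs and at most 121, 182, 94 and 156.

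Low counts of the 3 genes were also found in Krt14-high cells, and background RNA and low expression there cannot be told apart. Among basal-type cells with at least 300 CPM of Krt14, 1.48, 2.85, 0.693 and 1.16% had at least 3 UMIs on the 3 genes, at median depths of 20250.5, 21116, 18817 and 20186 UMIs. Within the luminal limits the shares were 25.8, 35.8, 26.4 and 30.7%, at 24339, 24678, 24997.5 and 27869 UMIs. With each cell thinned to 10000 UMIs, Cck was seen in 27.7, 36.8, 27.0 and 33.4% of luminal cells and 4.99, 6.84, 2.39 and 3.67% of Krt14-high cells. For Smr2 these shares were 9.73, 13.5, 10.8 and 9.19% and 0.943, 1.94, 0.299 and 0.917%. In each library both genes were therefore seen more often in luminal cells than in Krt14-high cells at equal depth.

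At the limit itself, the 133, 120, 99 and 74 members with exactly 3 UMIs had 83.4, 81.9, 90.0 and 79.6 CPM of Cck. The 196, 189, 138 and 108 cells just outside, with 2 UMIs, had 56.3, 60.1, 50.6 and 49.3 CPM. Id1 was at 21.1, 76.8, 33.2 and 30.4 CPM just inside and 14.9, 75.4, 31.2 and 24.5 CPM just outside.

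Members made up 25.8% of the luminal cells within the limits in the wild-type control (845 of 3278, exact Clopper-Pearson 95% interval 24.3 to 27.3), 35.8% in wild-type HU (1038 of 2901, 34.0 to 37.6), 26.4% in the Brca2mut/WT control (601 of 2278, 24.6 to 28.2) and 30.7% in Brca2mut/WT HU (591 of 1927, 28.6 to 32.8). The share was higher in the HU library of both genotypes. Without cells of antibody tag 3, however, it was 31.8% in the Brca2mut/WT control and 31.5% in Brca2mut/WT HU. With 1 library per condition the difference between HU and control had no replicate check and no test was made.

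Antibody tag pools differed by more than the libraries did. Tag 4 pools held 53.1, 63.7, 51.5 and 49.5% members, from 103, 109, 169 and 47 of 194, 171, 328 and 95 cells. In tag 1 pools the shares were 20.8, 30.3, 30.8 and 35.0%, and in tag 3 pools 29.4, 31.6, 17.4 and 29.4%. Tag 4 was thus the highest of these in each library. The HU library was above its control within tags 1 and 3 in both genotypes, but within tag 4 in wild type only. Tag 2 gave 53.8% in wild-type HU (249 of 463) and 33.9% in the wild-type control (20 of 59), and had under 50 cells within the limits in each Brca2mut/WT library, where the limit on Tmigd1 and Sez6 removed 94.9% and 84.5% of its cells. After thinning to 10000 UMIs with at least 2 UMIs asked for, tag 4 had 47.6, 61.3, 43.6 and 39.1%.

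**Figure D1:**
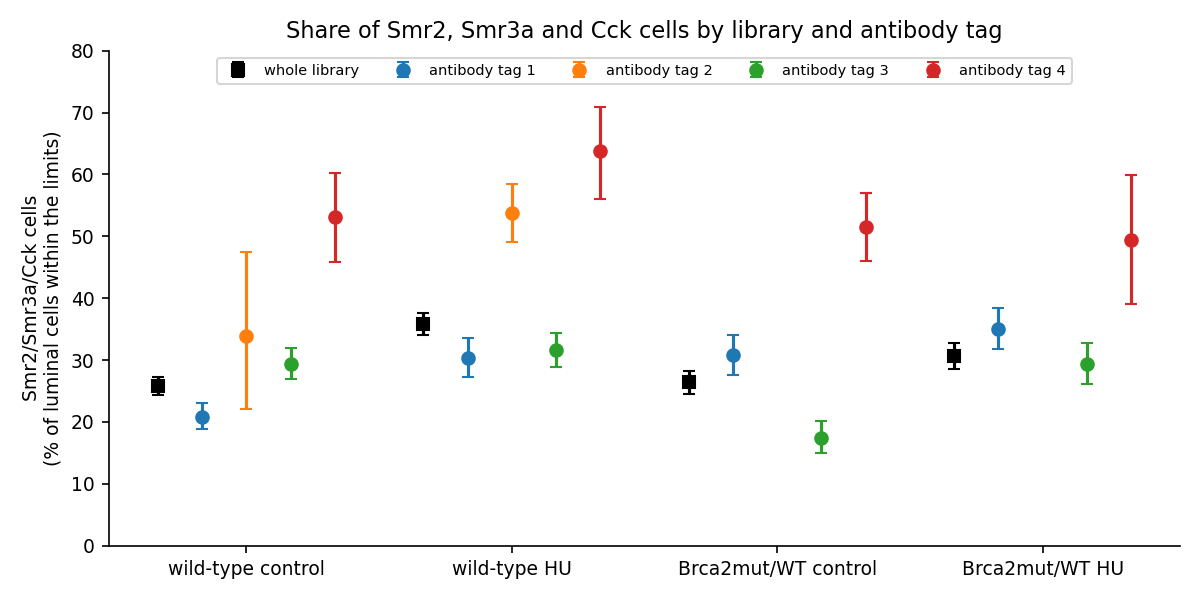
Share of luminal cells within the limits that were members (vertical axis, percent) for each whole library (black squares) and for each antibody tag pool of at least 50 cells (coloured circles), with exact 95% binomial intervals. Tag 4 lies between 49.5% and 63.7%, above tags 1 and 3 in each library.

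Cck and Smr2 were found together little more often than separate detection would give, and Smr2 and Smr3a more often. Of the members, 526, 613, 345 and 402 had Cck and neither Smr2 nor Smr3a, 125, 140, 96 and 59 had Smr2 or Smr3a and no Cck, and 194, 285, 160 and 130 had both. In luminal cells thinned to 10000 UMIs, Cck and Smr2 were detected together in 88, 147, 67 and 67 cells, 1.04, 1.09, 1.11 and 1.25 times the number that separate detection would give. Smr2 and Smr3a, the neighbours on chromosome 5, were detected together in 13, 26, 11 and 10 cells, which was 3.71, 3.94, 3.50 and 5.73 times that number. For Cck and Smr3a the ratio was 0.703, 0.665, 0.893 and 0.315, from 7, 12, 7 and 2 cells. These ratios describe cells that share a library, and those with Smr3a rest on few cells.

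The luminal label was then compared with marker genes. Krt8, a luminal keratin gene, had 1025, 1123, 1097 and 1061 CPM in members and 967, 1087, 1017 and 1055 CPM in comparison cells. Csn3, the gene of the milk protein kappa-casein, had 21501, 18101, 18323 and 20100.3 CPM in members and 21806, 19737, 19309 and 20841 CPM in comparison cells. Both kinds of cells thus carried these 2 markers, while the luminal keratin genes Krt7 and Krt19 had 81.4 CPM over all members against 132 in comparison cells, and 219 CPM over all members against 317 (log2 differences -0.68 and -0.53). Cldn3, another luminal marker, went the other way, with 370 CPM over all members against 295 in comparison cells (log2 difference 0.34). Esr1, the estrogen receptor gene that defines HR+ cells, had 0.659, 0.491, 0.764 and 0.621 CPM in members and 1.99, 1.92, 2.01 and 2.55 in comparison cells, and Pgr, the progesterone receptor gene, had 1.27, 1.05, 0.881 and 0.733 CPM against 2.58, 2.27, 2.30 and 2.76. Of 16 stromal, endothelial and immune markers, 5 had no UMI in members, among them Ptprc, Cdh5 and Col3a1. The most abundant of the 16, Cd68, had 2.05 CPM over all members, and the list summed to 8.26, 7.75, 9.11 and 5.47 CPM in members and 18.8, 15.5, 12.7 and 9.73 in comparison cells. Dcn, a fibroblast proteoglycan gene, had 1.41 CPM over all members against 7.22 in comparison cells.

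The other named markers did not all follow the label, and were chosen with earlier results known, so that their levels are a description. Id1 (chr2:152736251-152737410) had 29.6, 120.4, 54.2 and 43.9 CPM in members and 28.3, 49.1, 28.1 and 20.9 CPM in comparison cells. It was higher in members of 3 libraries by more than counting error, while in the wild-type control the intervals (27.4 to 31.9 and 26.7 to 30.0) overlapped. Spp1 (chr5:104435118-104441050) had 942, 2220.3, 566 and 782 CPM in members and 1105, 1600.5, 1258 and 775 CPM in comparison cells, so that members were lower in both control libraries. The top 10% of members held 88.0, 88.9, 93.2 and 94.7% of Spp1 UMIs. Otx1 (chr11:21994764-22002897) had 1.63, 5.58, 5.05 and 4.12 CPM in members and 1.47, 2.02, 1.72 and 0.934 CPM in comparison cells, from 37, 159, 86 and 73 UMIs in members.

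**Figure D2:**
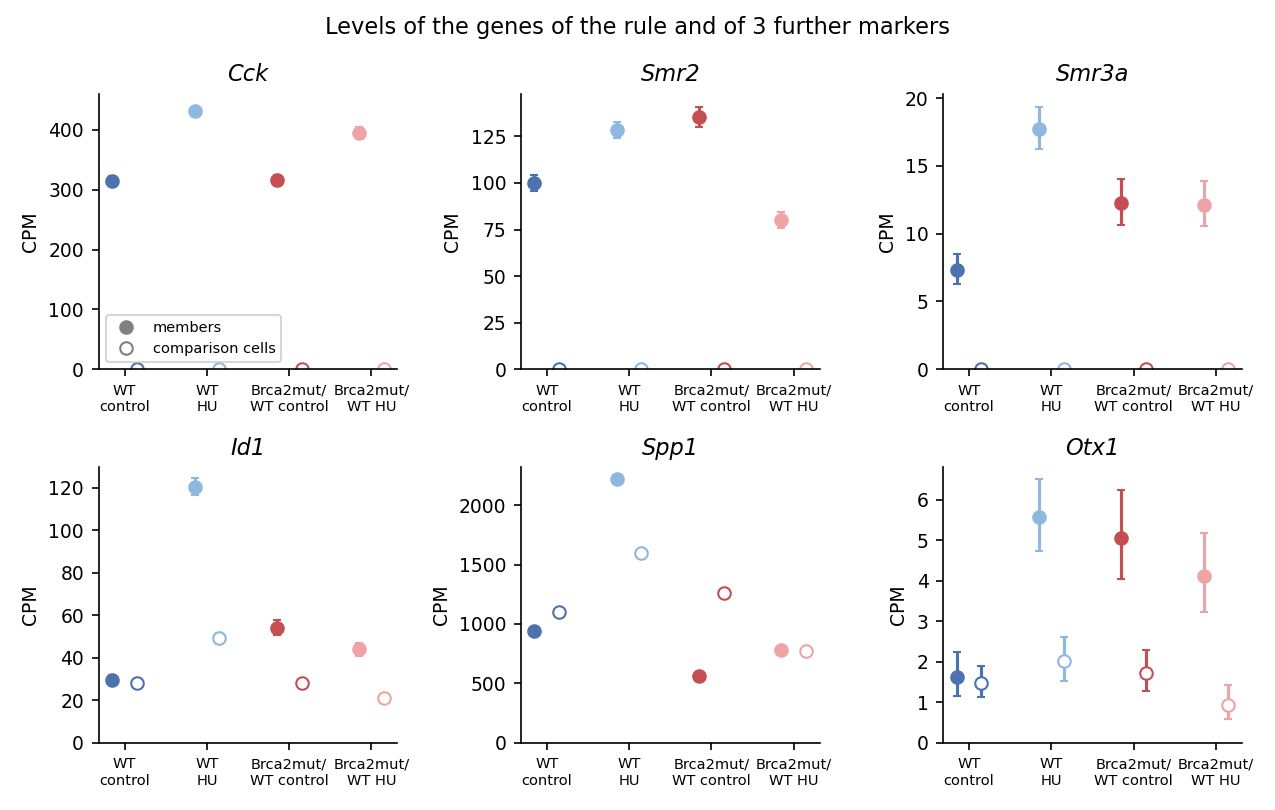
CPM (vertical axis) of the 3 genes of the rule and of Id1, Spp1 and Otx1 in members (filled circles) and comparison cells (open circles) of each library, with exact Poisson 95% intervals. Comparison cells are at 0 for the genes of the rule by construction, and Spp1 is higher in comparison cells of both control libraries.

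Within antibody tags the pattern of Id1 changed. In tag 1, members had 14.2, 19.9, 11.6 and 18.1 CPM of Id1 and comparison cells 18.8, 21.3, 18.4 and 17.3. In tag 3, members had 13.4, 17.7, 13.7 and 15.4 CPM and comparison cells 25.3, 24.6, 21.4 and 15.0. In tag 4, members had 113, 352, 146 and 320.1 CPM and comparison cells 128, 172, 91.6 and 103. Both kinds of cells of tag 4 were above both kinds of tags 1 and 3 in each library, and tag 4 also held a larger share of members. In tag 2 of wild-type HU, members had 260.2 CPM and comparison cells 165. Over the 12 pools with at least 1000000 UMIs in each kind of cell, which leave out tag 4 of Brca2mut/WT HU, Id1 was higher in members in 5, Spp1 in 3 and Otx1 in 10. The log2 difference of Id1 was 0.91 with libraries as blocks and 0.08 with pools as blocks, and that of Spp1 was -0.19 and -0.58.

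**Figure D3:**
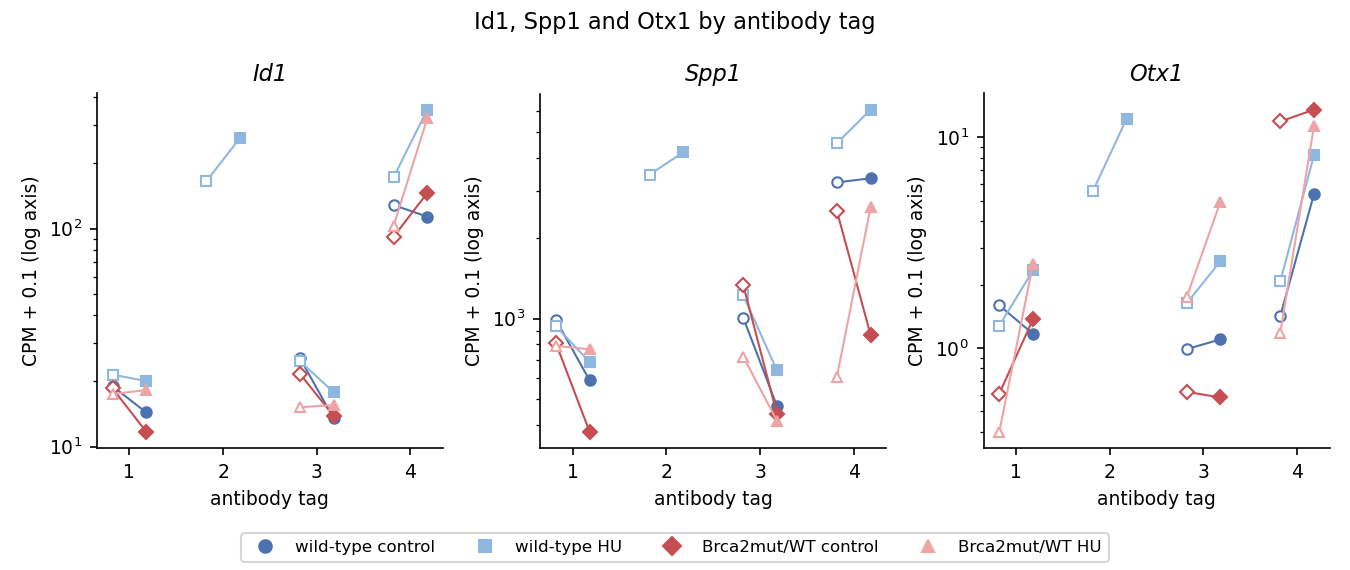
Levels of Id1, Spp1 and Otx1 (CPM plus 0.1, log axis) by antibody tag in comparison cells (open, left) and members (filled, right) of the same pool, joined by a line, for the 13 pools with at least 30 cells of each kind. Id1 is higher in both kinds of cells of tag 4 than in those of tags 1 and 3.

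To ask which other genes differed, UMIs were summed over members and over comparison cells of each library, and the 8 sums were compared with edgeR's quasi-likelihood test with the library as a block. Of 9276 genes tested, 86 (0.927%) were higher and 239 (2.58%) lower in members at a Benjamini-Hochberg adjusted p under 0.05 and at least 1.5-fold. Tested genes had at least 5 CPM on average, and the genes of the rule were left out. Sums per antibody tag pool gave 83 higher and 230 lower genes, of which 68 and 209 were among those above. Members were deeper than comparison cells, with medians of 26287, 27329, 27437 and 30001 UMIs against 22981, 22198, 22840 and 25363. Their median share of mitochondrial UMIs was also higher, at 3.52, 3.55, 3.54 and 3.49% against 3.00, 3.24, 2.74 and 3.21%, and its part in the differences was not tested. With comparison cells paired to members by depth, 79 genes were higher and 176 lower.

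The largest rise among the 15 genes named for their size, with at least 20 CPM in the higher kind of cells, was in 4930469K13Rik (chr11:33973961-34098554), which is annotated as protein coding. It had 59.4, 113, 128 and 102 CPM in members and 21.9, 38.8, 37.2 and 41.9 CPM in comparison cells (log2 difference 1.55, SE 0.06, edgeR adjusted p = 3.14e-08). Plcg2, the gene of a phospholipase that relays receptor signals, had 196, 218, 249 and 219 CPM in members and 104, 106, 131 and 124 CPM in comparison cells (log2 difference 0.96, SE 0.03, edgeR adjusted p = 3.05e-08). In both genes the members of every library lay above the comparison cells of all 4 libraries, and members were higher in all 12 pools. Here and below, genes named for size were chosen with the same direction in all 4 libraries, which favours groups that do not overlap. The share of all tested genes without overlap was not counted.

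Genes of ion and osmolyte handling were among the rises. Clic6, a chloride channel gene, had 197, 219, 239 and 238 CPM in members and 111, 126, 135 and 144 in comparison cells (log2 difference 0.83, edgeR adjusted p = 1.36e-08). Cldn10, a tight junction gene whose product forms ion pores between cells, had 129, 168, 177 and 151 CPM against 74.3, 80.6, 89.0 and 85.5 (log2 difference 0.95, edgeR adjusted p = 6.55e-08). Slc5a3, the gene of a sodium-coupled inositol transporter, had 43.4, 53.1, 60.1 and 54.7 CPM against 24.2, 30.3, 29.0 and 29.4 (log2 difference 0.93, edgeR adjusted p = 7.38e-08). In these 3 genes the groups did not overlap, which the choice of genes favoured. They were named by the size of their rise and not as a list of transporters.

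Receptors and secreted products were also among the named rises. Vipr1, a receptor gene for vasoactive intestinal peptide, had 18.6, 23.7, 24.2 and 23.4 CPM in members and 11.1, 11.5, 10.7 and 10.9 in comparison cells (log2 difference 1.03, edgeR adjusted p = 9.67e-07). Apod, which encodes the lipid carrier apolipoprotein D, had 1134, 919, 948 and 1239.8 CPM against 475.5, 666, 413 and 661 and was the most abundant of the named rises. Scgb2b27, a secretoglobin gene, had 201, 210.4, 197 and 263 CPM against 108, 127, 86.3 and 145. Members and comparison cells did not overlap in any of the 3. Adgrg2, an adhesion G protein-coupled receptor gene, rose by 0.97 and Gfra4, a coreceptor gene of the GDNF family, by 0.86 on the log2 scale.

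Tfcp2l1, a transcription factor gene of the grainyhead family, had 31.5, 29.0, 34.1 and 34.3 CPM in members and 17.1, 19.0, 16.4 and 16.2 in comparison cells (log2 difference 0.92, edgeR adjusted p = 1.80e-06). Aldh1a3, a retinaldehyde dehydrogenase gene used as a marker of luminal progenitors, had 38.7, 47.3, 35.0 and 31.7 CPM against 23.5, 23.1, 22.3 and 13.6 (log2 difference 0.91, edgeR adjusted p = 4.70e-06). Neither gene's groups overlapped. The other named rises were 5330417C22Rik with a log2 difference of 1.04, the zinc finger gene Zfp385b with 0.83, and Id1, which lost its call with pools as blocks.

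Fst, which encodes follistatin, an extracellular inhibitor of activins and some BMPs, had 4.44, 4.63, 0.999 and 2.09 CPM in members and 32.5, 32.5, 30.2 and 42.6 in comparison cells (log2 difference -3.35, SE 0.20, edgeR adjusted p = 3.14e-07). Sparc, the gene of a collagen-binding matrix protein, had 26.2, 25.9, 10.9 and 18.6 CPM against 156, 167, 185 and 244 (log2 difference -3.11, edgeR adjusted p = 2.58e-07). Acta2, the smooth muscle actin gene of myoepithelial cells, had 12.7, 22.7, 6.46 and 17.5 CPM against 76.3, 79.0, 98.5 and 144 (log2 difference -2.63, edgeR adjusted p = 2.44e-06). The groups did not overlap in these genes. Apoe, Myl9, Palld, Sprr1a, Timp3, Col18a1 and Gja1 completed the named falls, with log2 differences from -3.23 to -2.30. Sprr1a, a cornified envelope gene, had -2.43, but -0.99 with comparison cells paired by depth and -1.08 with residual basal and HR+ cells left out, by the limits given with the basal markers. In that setting Palld had -1.56 in place of -2.69, Timp3 -1.35 in place of -2.39 and Col18a1 -1.41 in place of -2.34, while Myl9 and Acta2, genes of that limit, had no value.

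Basal markers moved with these falls. Of 13 basal markers 10 were tested, of which 7 fell, 0 rose and 3 passed neither way (median log2 difference -1.35). Their summed level was 117, 123, 72.3 and 93.1 CPM in members and 256, 269, 286 and 381 CPM in comparison cells, so that comparison cells held more basal-type RNA despite the Krt14 limit. Trp63, the transcription factor gene that defines basal cells, had 6.98, 5.89, 3.94 and 3.67 CPM in members against 15.98, 12.60, 18.23 and 16.23, and the most abundant of the list in members was Vim, with 30.2 CPM against 42.9. Both kinds of cells were then limited to under 100 CPM summed on Krt5, Krt17, Acta2, Myl9 and Tagln and under 500 CPM on Prlr, Foxa1 and Esr1, a setting chosen after seeing the data, and 56 genes rose and 114 fell. Fst then had a log2 difference of -2.28, Sparc -2.07 and Apoe -1.62. Trp63, which is not a gene of that limit, had -0.84 in place of -1.53. Krt5, a gene of that limit, changed sign to 0.03 from -0.90, while 4930469K13Rik had 1.38, Cldn10 0.96 and Plcg2 0.81.

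**Figure D4:**
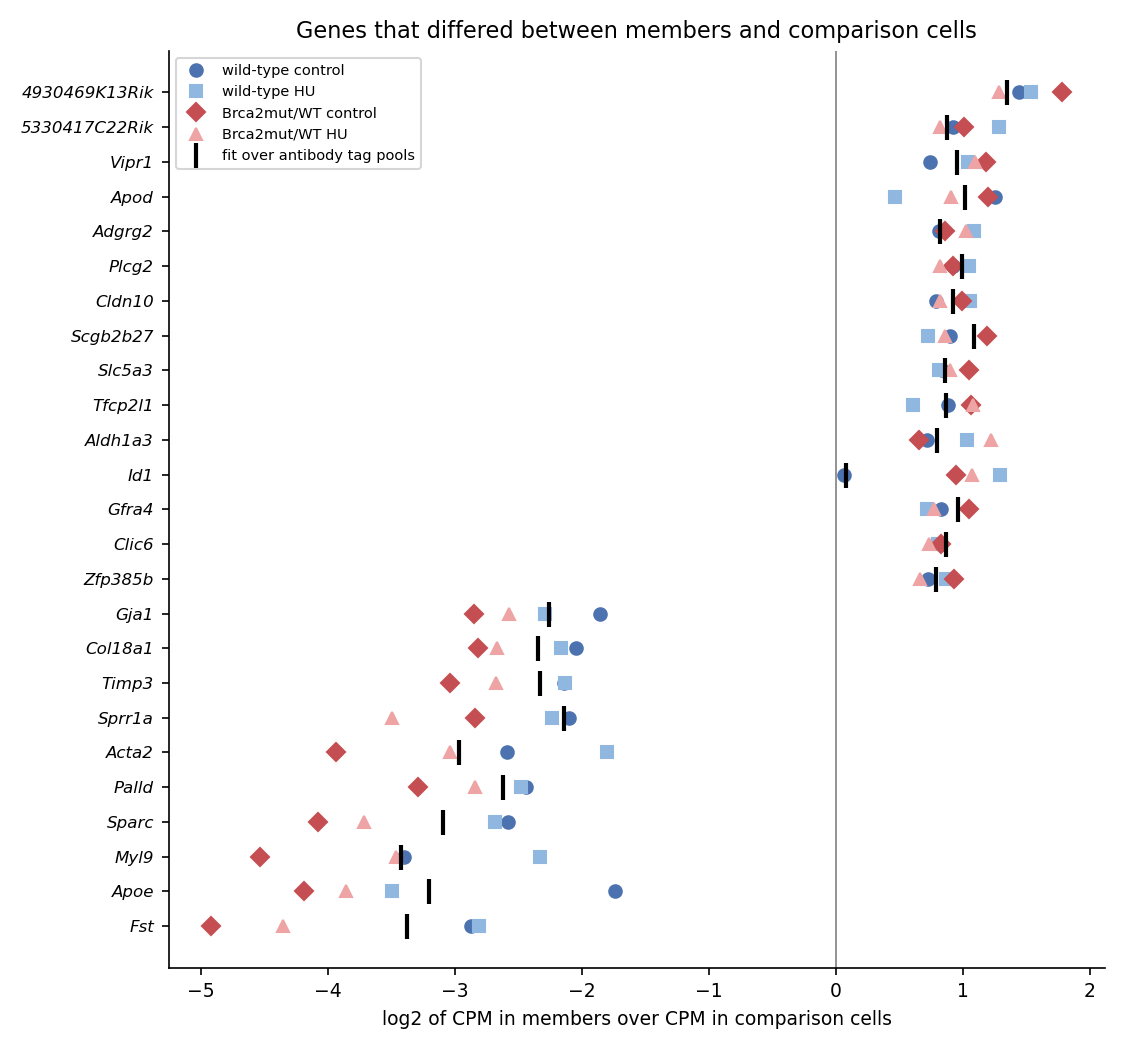
Log2 of the CPM in members over the CPM in comparison cells (horizontal axis) for the 15 named rises and 10 named falls, with 1 symbol for each library and a black bar for the estimate with antibody tag pools as blocks. The black bar of Id1 lies at 0.08, whereas those of the other rises lie at 0.79 or more.

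Gene lists are given by their tested members and their median log2 difference, beside -0.00 for all 9276 genes, and a call has to be read against the shares of 0.927% and 2.58% over all genes. Of 8 luminal markers 0 rose and 2 fell, Krt7 and Cldn4 (median 0.02), with Krt7 at 82.3, 86.4, 76.4 and 77.0 CPM in members and 129, 141, 131 and 124 in comparison cells. With residual basal and HR+ cells left out, Krt7 had a log2 difference of -0.42, under the fold limit. Of 10 HR- luminal markers 1 rose, Aldh1a3, and 1 fell, the integrin gene Itga2 (median 0.09). Kit, the receptor gene that marks luminal progenitors, had 116, 89.8, 117 and 108 CPM in members and 81.5, 64.9, 87.6 and 75.6 in comparison cells, a log2 difference of 0.51 that was under the fold limit. Elf5, an alveolar regulator gene, had 118, 141, 124 and 137 CPM against 88.1, 111, 94.9 and 115, a log2 difference of 0.38. Cd14, a lipopolysaccharide co-receptor gene of the same list, went the other way, with 138, 109.8, 97.4 and 92.2 CPM against 197, 135, 152 and 112 and a log2 difference of -0.41, also under the fold limit, and was higher in members of 0 of 12 pools. Ltf, the lactoferrin gene, had -0.25. Of 10 HR+ markers 3 were tested and 1 fell, Ly6a (median 0.12), at 38.8, 28.9, 29.8 and 24.9 CPM in members against 96.7, 112, 135 and 112. The 10 HR+ markers together summed to 157, 135, 141 and 145 CPM in members and 226, 243, 252 and 238 in comparison cells, so that comparison cells held more RNA of these genes in each library. Among those too low to test by library, Foxa1 had 1.17 CPM over all members against 4.35, Cited1 1.56 CPM over all members against 6.29 and Wnt4 2.22 CPM over all members against 7.05. The part of residual HR+ cells in the falls was not tested beyond the setting that leaves them out. Of the 16 stromal, endothelial and immune markers 0 were abundant enough to test.

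Among 22 tested genes of the BMP and TGF-beta pathway, 2 rose and 1 fell (median -0.00). The fall was the inhibitor gene Fst, and the rises were the target gene Id1 and Tgfb3, which encodes a TGF-beta ligand. Id1 lost its call with pools as blocks, where its log2 difference of 0.08 had an edgeR adjusted p = 0.728. Tgfb3 had 257, 252, 229 and 270.5 CPM in members and 172, 158, 158 and 180.0 in comparison cells (log2 difference 0.62, SE 0.03, edgeR adjusted p = 7.07e-08), and 0.52, under the fold limit, with residual basal and HR+ cells left out. Id2, a relative of Id1, had 385 CPM over all members against 274, a log2 difference of 0.49 under the fold limit, and was higher in members of all 12 pools. Smad7 and Bambi, 2 inhibitors that the pathway induces, had log2 differences of -0.49 and -0.46.

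Genes that process peptide hormones such as cholecystokinin were mostly not abundant enough to test. Of 19 such genes 6 were tested, 0 rose and 1 fell at the fold limit (median -0.18). The fall was Cpe, the gene of a carboxypeptidase that trims peptide hormones, at 8.96, 11.9, 8.34 and 7.39 CPM in members against 18.8, 22.7, 17.6 and 19.6. Its log2 difference was -1.06, but -0.53, under the fold limit, with residual basal and HR+ cells left out. Cpd, a related carboxypeptidase gene, had 416 CPM over all members against 333 and was higher in members of all 12 pools, with a log2 difference of 0.38 that was under the fold limit (edgeR adjusted p = 3.58e-07), and Pam, the gene of the amidating enzyme, had 25.8 CPM over all members against 29.5 (-0.16 on the log2 scale). Of 14 other peptide hormone genes 8 had no UMI in members, and the 1 tested, the adrenomedullin gene Adm, fell from 34.0, 15.6, 36.1 and 13.6 CPM in comparison cells to 12.2, 8.14, 14.5 and 7.11 in members.

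Other secretory genes moved in both directions. Among gland secretory proteins 14 of 23 were tested, 1 rose, Prol1, and 2 fell (median 0.10). The falls were in the antiprotease gene Slpi, at 59.6, 65.7, 47.8 and 27.6 CPM in members against 253, 326, 211 and 202, and in Wfdc2, a gene of the same protein family, at 169, 195, 112 and 90.2 against 364, 392, 271 and 236. Of 7 milk genes tested 0 were called (median 0.14), with Plin2, a lipid droplet gene, at 731 CPM over all members against 498. The list around Spp1, of SIBLING glycoproteins and their receptors, also had 7 genes tested and 0 called (median -0.16).

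Ifit3, an interferon-induced gene, rose in members, with 283, 282, 322 and 278 CPM against 191, 179, 201 and 192 (log2 difference 0.64, SE 0.03, edgeR adjusted p = 6.55e-08). It was the 1 called gene among 24 tested genes of the interferon response (median 0.22). With comparison cells paired by depth its log2 difference was 0.57, under the fold limit. Irf7 and Isg15, a regulator and an effector of this response, had log2 differences of 0.43 and 0.37, and both were higher in members of all 12 pools.

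Tspan8, a tetraspanin gene, had 106, 113, 104 and 137 CPM in members and 69.3, 79.4, 54.2 and 67.2 in comparison cells. It was the 1 rise among 9 tested genes of other luminal states, beside falls of the keratin genes Krt6a and Krt15 (median 0.10). Krt6a had a log2 difference of -0.64 but of -0.39 with pools as blocks (edgeR adjusted p = 0.0715) and -0.20 with residual basal and HR+ cells left out (adjusted p = 0.213), and was higher in members of 3 of 12 pools. Thrsp, a lipogenic regulator gene, was the 1 rise among 20 fatty acid and cholesterol genes (median -0.07), with a log2 difference of 0.69, but 0.46 with pools as blocks and 0.52 with residual basal and HR+ cells left out, both under the fold limit. Among 8 tested chemokine and cytokine genes 4 fell, Cxcl10, Il33, Cxcl16 and Csf3, and 0 rose (median -0.55). Cxcl10, an interferon-induced chemokine gene, had 0.703, 0.0702, 0.118 and 0.339 CPM in members and 7.18, 1.24, 9.37 and 23.9 in comparison cells, and was higher in members of 4 of 12 pools. Il33, an alarmin gene, had 3.91, 1.82, 1.35 and 3.78 CPM in members and 13.4, 14.4, 9.83 and 10.5 in comparison cells.

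Of the remaining lists, 26 lineage transcription factors had 1 fall, Tbx3 (median 0.06), while the receptor genes Notch1 and Notch3 had log2 differences of 0.54 and 0.55 under the fold limit. The p53 targets had 1 fall among 14, Ddit4l (median 0.13), hypoxia and glycolysis genes 1 among 15, Ankrd37 (-0.15), and Wnt genes 1 among 6, the receptor gene Fzd7 (-0.11). Fzd7 had a log2 difference of -0.67, which was under the fold limit with pools as blocks (-0.58) and, like that of Ddit4l (-0.46), with residual basal and HR+ cells left out (-0.49). Immediate early and dissociation genes had 2 falls among 18, Socs3 and Myc (median -0.01). There were 0 called genes among 12 S phase genes (median -0.04), 3 G2 and mitosis genes (-0.18, a list that the mitotic limit bears on), 2 MHC class II genes (0.07) and 7 EGF ligands and ErbB receptors (-0.05).

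Members with Cck only and with Smr2 or Smr3a only (Smr-only) were then compared, a split made after seeing the data and therefore without a test. Of 5250 genes with at least 20 CPM in either kind, 22 (0.419%) were at least 1.5-fold higher in Smr-only members and 13 (0.248%) in Cck-only members in each of the 4 libraries. With a mean of at least 20 CPM over both kinds, 15 (0.295%) and 10 (0.197%) of 5087 genes were. Mgp, which encodes matrix Gla protein, an inhibitor of calcification, had 4883, 3427, 4028 and 3672 CPM in Smr-only members and 1251, 1003, 1006 and 886 in Cck-only members. Members with both had 2771, 1754, 1935 and 1696 CPM and comparison cells 2204, 1929, 1903 and 1396, so that the members with both lay between the other members in each library. Sparc had 69.7, 93.3, 29.5 and 83.6 CPM in Smr-only and 13.9, 9.52, 6.21 and 10.1 in Cck-only members, while Acta2 had 36.2, 82.8, 8.90 and 105 CPM in Smr-only and 7.48, 5.28, 4.17 and 7.47 in Cck-only members. Smr-only members were below the comparison cells of their library in both genes, except for Acta2 in wild-type HU, where comparison cells had 79.0 CPM. Vwa1, Cbr2, Col18a1, Rflna and Gsg1l were the other named genes higher in Smr-only members, of which Cbr2, Rflna and Gsg1l were under that mean.

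Several of the rises named above were stronger in Cck-only members, and some were absent from Smr-only members in part of the libraries. 4930469K13Rik had 61.8, 115, 168 and 112 CPM in Cck-only and 28.2, 46.5, 37.0 and 28.4 in Smr-only members. Comparison cells had 21.9, 38.8, 37.2 and 41.9 CPM, so that Smr-only members were above them in the wild-type libraries only. Tfcp2l1 had 38.4, 34.0, 43.2 and 41.6 CPM against 18.4, 15.4, 14.2 and 12.6, with the Smr-only value above that of comparison cells in the wild-type control only. Cldn10 had 148, 176, 198 and 168 CPM against 72.3, 103, 110.4 and 73.1. Comparison cells had 74.3, 80.6, 89.0 and 85.5 CPM of Cldn10, above Smr-only members in the wild-type control and Brca2mut/WT HU. Wfdc3, Ncald, Slc6a8, Vipr1 and Lyzl4 were also higher in Cck-only members, with Ncald and Vipr1 under a mean of 20 CPM over both kinds. Of the luminal markers described above, Krt8 had 1058, 1188, 1139.7 and 1103 CPM in Cck-only and 957, 999, 1061 and 849 in Smr-only members, and Kit had 119, 90.3, 123 and 110.3 CPM against 107, 82.8, 103 and 84.2. Csn3 had 21355, 18896, 18515 and 20938 CPM against 22127, 16788, 20499 and 18381, and its order differed between the control and HU libraries. The median depth was 25652.5, 26381, 26144 and 29101.5 UMIs in Cck-only and 26906, 27548, 29221 and 33111 in Smr-only members.

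**Figure D5:**
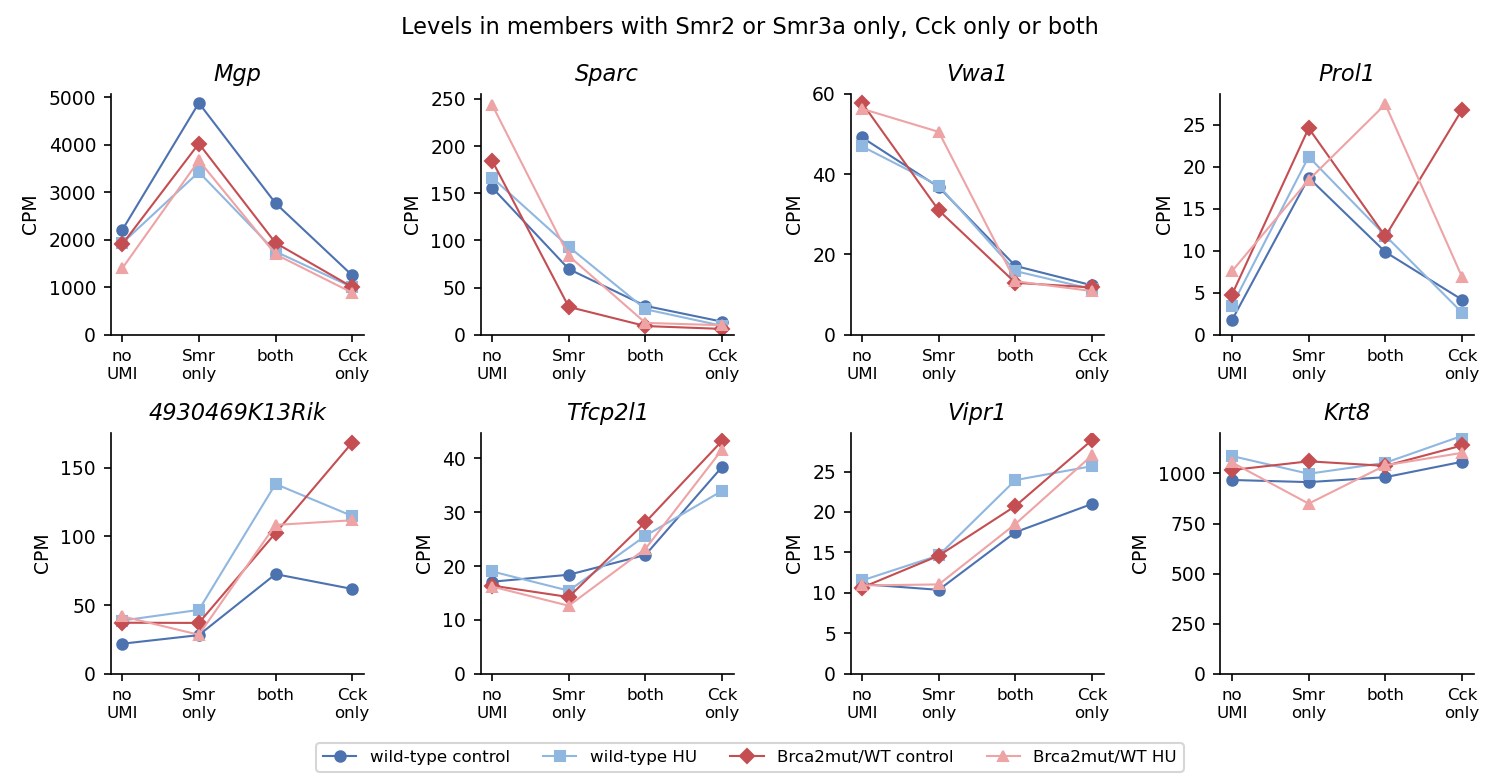
CPM (vertical axis) of 8 genes in comparison cells with no UMI on the 3 genes, Smr-only members, members with both and Cck-only members, with 1 line for each library. Mgp is highest in Smr-only members, whereas 4930469K13Rik and Tfcp2l1 are higher in Cck-only than in Smr-only members.

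Some neighbours of the rule genes on the chromosome passed the test, an observation made after their values were seen. Lyzl4 (chr9:121577843-121642096, minus strand), a lysozyme-like gene, and Vipr1 (chr9:121642716-121672954, plus strand) lie 82149 and 147022 bases from Cck. Lyzl4 had 62.1, 61.4, 73.3 and 56.8 CPM in members and 41.1, 33.5, 46.8 and 36.9 in comparison cells (log2 difference 0.71, SE 0.05, edgeR adjusted p = 6.83e-07). In Cck-only members it had 72.7, 66.3, 88.7 and 64.5 CPM, against 39.4, 40.5, 44.9 and 35.2 in Smr-only members. Smr-only members were thus above comparison cells in wild-type HU only. Vipr1 had already been named for the size of its rise, and a part of position was not tested. Lyzl4 and Vipr1 were the called rises, 2 of the 6 genes tested within 300 kb of Cck, against 0.927% of all 9276 tested genes. Of the others, Trak1, 14906 bases from Cck, had a log2 difference of 0.29, Ss18l2 0.33, Zfp651 0.34 and Nktr 0.00, all under the fold limit.

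On the Smr side, Prol1 (chr5:88317312-88328814, plus strand), a gene of a proline-rich secreted protein 208259 bases from Smr2, had 7.69, 7.82, 22.1 and 12.8 CPM in members and 1.75, 3.44, 4.77 and 7.56 in comparison cells (log2 difference 1.58, SE 0.20, edgeR adjusted p = 8.78e-05). It had 18.7, 21.2, 24.6 and 18.4 CPM in Smr-only and 4.17, 2.64, 26.8 and 6.88 in Cck-only members, so that the Brca2mut/WT control did not share the order of the other libraries. Csn3, 153891 bases from Smr2 on the other side, had a log2 difference of -0.04.

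Between libraries, few genes of members differed in the same direction in both genotypes or both treatments. Of 5375 genes with at least 20 CPM in 1 library, 9 (0.167%) were at least 1.5-fold higher and 6 (0.112%) lower in the HU library of both genotypes. A gene could enter through the 1 library where it was high, and with a mean of at least 20 CPM over the 4 libraries, chosen after seeing the data, 4 (0.0783%) of 5107 genes were higher and 4 (0.0783%) lower. Slc7a11, Hmox1, Acta2, Per1, D830025C05Rik and Clec2d, named here, were under that mean. Slc7a11, the cystine transporter gene of glutathione synthesis, had 9.01, 22.9, 7.34 and 18.6 CPM in members and 8.11, 19.1, 8.15 and 15.8 in comparison cells. Hist1h1c, a linker histone gene, had 40.4, 85.9, 42.9 and 97.6 CPM in members and 40.3, 71.7, 39.4 and 89.3 in comparison cells. Both kinds of cells were thus higher in the HU libraries. Hmox1, the heme oxygenase gene, had 5.75, 25.5, 8.52 and 17.8 CPM in members and, in those of tag 1, levels of 4.15, 9.26, 4.24 and 9.09 CPM. The clock gene Per1 had 13.2, 22.7, 14.2 and 23.4 CPM in members and 13.6, 19.6, 13.5 and 19.4 in comparison cells. Acta2 was also among the named rises, but in members it went from 22.5 to 19.4 CPM within tag 1 of wild type and from 7.34 to 5.41 CPM within tag 1 of Brca2mut/WT. Within tag 3 it went from 6.89 to 4.86 CPM in wild type and from 3.38 to 5.87 in Brca2mut/WT. G0s2, a lipase inhibitor gene, was lower with HU, at 131, 73.5, 113 and 52.5 CPM, as were D830025C05Rik, Letm2, AW112010 and Clec2d. Within tag 1 of wild type, however, AW112010 went from 38.7 to 57.3 CPM.

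With genotype, 2 genes (0.0372%) were higher and 6 (0.112%) lower in Brca2mut/WT members under both treatments, or 1 (0.0196%) and 4 (0.0783%) of 5107 with a mean of at least 20 CPM. Prol1, Krt5 and Rpl9-ps6 were under that mean. The higher genes were Prol1 and the glutathione transferase gene Gstp1, which had 19.4, 16.8, 30.1 and 31.3 CPM in members and 18.8, 18.8, 30.1 and 32.6 in comparison cells. Prol1 had 7.69, 7.82, 22.1 and 12.8 CPM, but within tag 3 it was lower in Brca2mut/WT under both treatments, at 11.1, 9.72, 5.79 and 4.84 CPM, and within tag 1 higher under both, at 3.56, 8.06, 9.88 and 22.3 CPM. Krt5, a basal keratin gene, was lower, at 27.8, 20.9, 7.93 and 10.6 CPM, and within tag 1 it had 27.5, 22.1, 8.19 and 8.86 CPM. Spp1 was also lower over whole libraries, but within tag 1 it had 587, 688, 377 and 767 CPM and did not keep this order under HU, whereas within tag 3 it did, at 470.3, 639, 439 and 414 CPM. Snhg9, Rpl9-ps6 and Gm8797 were the other named falls, and reads of Rpl9-ps6, named as a pseudogene, may be shared with its parent gene. With 1 library per condition, a condition and its library cannot be told apart.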

How the data were processed

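Organoid cells of 4 libraries were analysed from the gene by cell UMI count matrices that the authors deposited. Per the submitters' processing notes, Cell Ranger 6.0.2 and Seurat 4.0 were used, while the matrix headers name Cell Ranger 6.1.1. The counts are not normalized. Members and gene lists were chosen with earlier results of these data known. Counts were summed over members and over comparison cells of each library and compared with edgeR 4.0.16 (R 4.3.3; TMM, quasi-likelihood test, library as block), with DESeq2 1.42.0 as an alternative. Each library holds both kinds of cells, so the pairing is by library. The 4 libraries are 4 conditions, so p-values measure the spread between conditions of the difference. Named genes were those of the rule, the given markers, the 15 largest rises and 10 largest falls among called genes with the same direction in all 4 libraries and at least 20 CPM, and 2 to 6 genes per list with at least 20 CPM. List genes called below that level were named after their values were seen. A cell had an antibody tag when that tag held at least 80% of at least 20 tag UMIs. No doublet caller was run. The fit was tested on simulated data. Python 3.11.15, numpy 2.4.6, scipy 1.17.1 and matplotlib 3.10.9 were used. Alternatives were other UMI limits, cell filters, depth pairing, sums per tag, other scaling and leaving out each library.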

Additional observations from a re-analysis of the deposited data

Results flagged for a closer look

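Smr2 and Id1 moved in opposite directions with HU in the members of the 2 genotypes, and with 1 library per condition the difference was not tested. The log2 ratio of HU to control was 0.362 in wild type and -0.7551 in Brca2mut/WT for Smr2, which helped to choose the members. For Id1 it was 2.024 in wild type and -0.3035 in Brca2mut/WT. Within antibody tags, Id1 in members was higher in the HU library in each of the 6 comparisons of tags 1, 3 and 4. In tag 4 it went from 113 to 352 CPM in wild type and from 146 to 320.1 in Brca2mut/WT, where the number of tag 4 members went from 169 to 47. Smr2 in tag 4 went from 92.6 to 232 CPM in wild type and from 169.6 to 218 in Brca2mut/WT, in tag 3 from 96.4 to 101 and from 97.2 to 53.1, and in tag 1 from 91.9 to 75.4 and from 139.5 to 78.7. Only tag 3 of these 3 tags thus moved in opposite directions in the 2 genotypes. The part of the tag makeup in the library values was not tested.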

How the results depend on the processing

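Of 86 higher and 239 lower genes, 56 and 114 were called with residual basal and HR+ cells left out, a setting chosen after seeing the data, and 245 and 968 with no filter on low counts, which tests more genes. Leaving out 1 library gave 82 to 95 higher and 230 to 250 lower genes, and the fit without the library block (no pairing) 84 and 226. DESeq2 called 85 and 238. Over 36 named genes and 23 alternatives, 826 differences were fitted, of which 800 kept direction and call, 25 kept direction only and 1 reversed, Krt5 with a log2 difference of 0.031 with residual basal and HR+ cells left out. Id1 lost its call with sums per tag, without tag 4 and without the block. With a mean of at least 20 CPM, chosen after seeing the data, 4 in place of 9 genes were higher with HU and 1 in place of 2 with Brca2mut/WT, and fewer genes were tested. The other causes were not tested.

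Member shares moved with the limit, to 31.8, 42.3, 32.4 and 36.3% at 2 UMIs, 18.6, 28.3, 19.6 and 23.5% at 5 UMIs and 22.0, 31.0, 23.0 and 26.3% after thinning. They were 29.8, 40.5, 31.2 and 36.5% with wider quality limits and, in settings chosen after seeing the data, 27.9, 38.8, 28.9 and 34.1% with residual cells left out, 28.5% and 33.0% in Brca2mut/WT with at least 10000 UMIs, and 23.5% and 28.5% there without the Tmigd1 and Sez6 limit. Cells with 1 tag gave 28.4% and 32.9% in Brca2mut/WT, and Krt14 and Areg under 100 CPM 27.6% in the wild-type control. Without tag 1 the shares were 29.8, 38.1, 23.9 and 27.4%, without tag 3 23.4, 38.6, 31.8 and 31.5%, without tag 4 24.1, 34.0, 22.2 and 29.7%, and without tag 2 32.4% in wild-type HU.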
